A study of Mus musculus with 112 samples.

Results

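The genes described here build the hair shaft and the sheath that moulds it. They are every gene whose symbol begins with Krtap, the keratin-associated proteins, plus a set of hair follicle keratins and 4 follicle differentiation genes, Tchh, Padi3, Dsg4 and Foxn1. The list was set by name, and each gene was read from a probe set with 1 symbol. Of the 18772 genes on the arrays that could be read in this way, 64 were members. They comprised 7 keratins of the inner root sheath, 8 keratins of the hair shaft, the 4 differentiation genes and 45 Krtap genes. Krt85, a keratin of the shaft cortex and cuticle, was not analysed here.

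The study followed skin carcinogenesis in 15 male mice of a cross in which hybrids of Mus spretus and FVB were mated back to FVB. Each mouse received the mutagen DMBA once at 8 weeks of age and then repeated doses of the tumour promoter TPA, so the dorsal skins that serve as normal tissue come from treated animals too. The 6 mice labelled HrasKO carried a knockout of Hras, whose extent the labels do not describe, and the other 9 were wild type (WT). RNA was measured on 112 arrays as log2 intensity. The arrays held 27 papillomas of 13 mice, 10 squamous carcinomas (SCC) of 8 WT mice, 12 spindle carcinomas of 10 mice, 24 SCC metastases of 11 mice, 20 spindle metastases of 7 mice, 3 carcinomas and 1 metastasis of mixed histology, and 15 dorsal skins, 1 from each mouse. Each mouse of the cross has its own genetic background, and tumours of 1 mouse are not independent. All tests therefore used mouse means. The labels do not give the hair cycle stage, whether a skin was shaved, or the age at which each skin was taken. The Hras gene itself was not analysed here, so the genotype labels could not be checked on it.

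A hair is made by matrix cells at the base of the follicle, which differentiate into concentric layers. Type I and type II keratins pair into filaments, and in the shaft the keratin-associated proteins embed and cross-link these filaments through cysteine or glycine and tyrosine residues. The inner root sheath around the shaft uses its own keratins together with trichohyalin (Tchh), whose arginines are converted to citrulline by peptidylarginine deiminase 3 (Padi3). Follicles cycle through growth (anagen), regression and rest, and most of these genes are transcribed only in anagen. Foxn1, the transcription factor lost in nude mice, and Dsg4, a desmosomal cadherin of the shaft, are required for a normal hair.

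The single-array medians lay between 5.89 and 6.36 log2 and the overall median was 6.12. An array value near the bottom of a probe set's own range has no detection call in the deposited values, so low values are given as levels and not as absence. Many Krtap genes are near-identical copies. A further 5 Krtap symbols were measured only on probe sets shared with another gene and were left out, and reads of one copy by the probes of another cannot be told apart here. All members but Krtap4-2 rested on 1 probe set. By the correlation of each array with the group means over all genes, 13 tumour arrays lay closest to another class, taking papillomas and SCC as one class, spindle tumours as another and skin as the last. They included 5 papillomas, of which 4 were closest to a spindle group and 1 to skin, and 1 spindle carcinoma of mouse 1949 closest to SCC carcinomas. All 15 skins lay closest to skin.

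The sequence before the transcript start is shown for 6 members, so that the promoter element found in most keratin and Krtap members can be seen beside Foxn1, which lacks it. RefSeq entries (GRCm38.p6) of 250 bases before to 50 bases after the start matched 56 of the 64 members. The letters TATAAA were present on either strand in 44 of these 56 windows, or 78.6%, against 13.6% of all 32851 windows. Read in the direction of the transcript with its first base between 36 and 26 bases before the start, TATAAA was present in 30 members, or 53.6%, against 1.73% of all windows. The windows of all 7 inner root sheath keratins and of 33 of 41 Krtap genes held it on either strand, as did 4 of 5 shaft keratins, and those of the 3 differentiation genes with an entry did not. The letters CTTTGAAG, which contain a core bound by LEF1 and TCF factors, were found on either strand in 4 of 5 shaft keratins, 7 Krtap genes and none of the 7 inner root sheath keratins, which is 19.6% of the members against 1.66% of all windows. Of 6 letter strings counted, CTTTGTT (12.5% of members against 5.85%), CAAAG (71.4% against 53.9%), CAGCTG (17.9% against 16.3%) and ACACAAA (17.9% against 5.61%) were the others, on either strand. These are matches of letters and not measured binding. In the 250 bases before the start below, capitals mark TATAAA and CTTTGAAG.
Krt71 (chr15:101743098-101743347, minus strand): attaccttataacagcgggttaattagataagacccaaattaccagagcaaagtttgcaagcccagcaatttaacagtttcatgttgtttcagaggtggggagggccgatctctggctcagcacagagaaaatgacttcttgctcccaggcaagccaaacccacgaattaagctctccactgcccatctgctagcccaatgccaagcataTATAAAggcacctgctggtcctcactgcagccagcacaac
Krt31 (chr11:100050552-100050801, minus strand): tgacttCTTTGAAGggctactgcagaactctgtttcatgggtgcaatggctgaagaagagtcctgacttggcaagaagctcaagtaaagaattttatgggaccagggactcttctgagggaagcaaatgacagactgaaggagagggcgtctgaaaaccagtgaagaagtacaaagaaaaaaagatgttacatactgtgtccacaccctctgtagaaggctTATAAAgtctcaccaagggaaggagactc
Krt34 (chr11:100041555-100041804, minus strand): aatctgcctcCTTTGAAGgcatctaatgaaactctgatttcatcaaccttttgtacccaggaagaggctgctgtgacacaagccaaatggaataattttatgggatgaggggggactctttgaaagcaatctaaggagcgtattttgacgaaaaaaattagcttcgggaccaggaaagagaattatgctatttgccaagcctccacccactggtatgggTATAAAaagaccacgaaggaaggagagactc
Krtap8-1 (chr16:89487953-89488202, minus strand): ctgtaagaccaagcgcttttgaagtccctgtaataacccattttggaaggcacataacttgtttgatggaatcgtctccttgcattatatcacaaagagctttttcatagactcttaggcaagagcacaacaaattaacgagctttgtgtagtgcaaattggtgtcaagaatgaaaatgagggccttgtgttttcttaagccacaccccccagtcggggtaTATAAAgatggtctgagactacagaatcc
Krtap3-2 (chr11:99556854-99557103, minus strand): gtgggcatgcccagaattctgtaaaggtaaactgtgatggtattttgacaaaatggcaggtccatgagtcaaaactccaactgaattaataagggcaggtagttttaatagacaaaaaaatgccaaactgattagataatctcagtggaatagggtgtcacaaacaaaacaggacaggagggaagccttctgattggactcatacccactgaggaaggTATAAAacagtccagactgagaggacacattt
Foxn1 (chr11:78386609-78386858, minus strand): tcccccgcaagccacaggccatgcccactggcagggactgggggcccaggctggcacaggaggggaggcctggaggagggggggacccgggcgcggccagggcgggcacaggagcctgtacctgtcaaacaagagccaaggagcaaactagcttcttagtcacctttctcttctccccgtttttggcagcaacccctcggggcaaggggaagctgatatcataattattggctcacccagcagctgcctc
The shaft keratins Krt31 and Krt34 carried both strings, 29 and 31 bases before the start for TATAAA. The inner root sheath keratin Krt71 and the cuticle and cortex proteins Krtap8-1 and Krtap3-2 carried only TATAAA, and Foxn1 carried neither.

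The dorsal skins fell into skins with high hair gene levels and skins with low ones, and the members moved together. The same 8 skins held the 8 highest values for 62 of the 64 members. They were those of HrasKO mice 1509, 1537 and 1664 and WT mice 1383, 1456, 1815, 1984 and 2104. Krtap13 and Krtap5-3 were the exceptions. The 7 other skins came from HrasKO mice 1407, 1616 and 1706 and WT mice 1508, 1717, 1949 and 2022. The highest and lowest skin differed by more than 4 log2 units for 61 members and by less than 2 for Krtap13 alone. Skin 1984 was the highest for 35 members, 1815 for 21, 2104 for 7 and another skin for 1. These sets of skins were read from the values themselves, so they are described and not tested against each other.

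**Figure D1:**
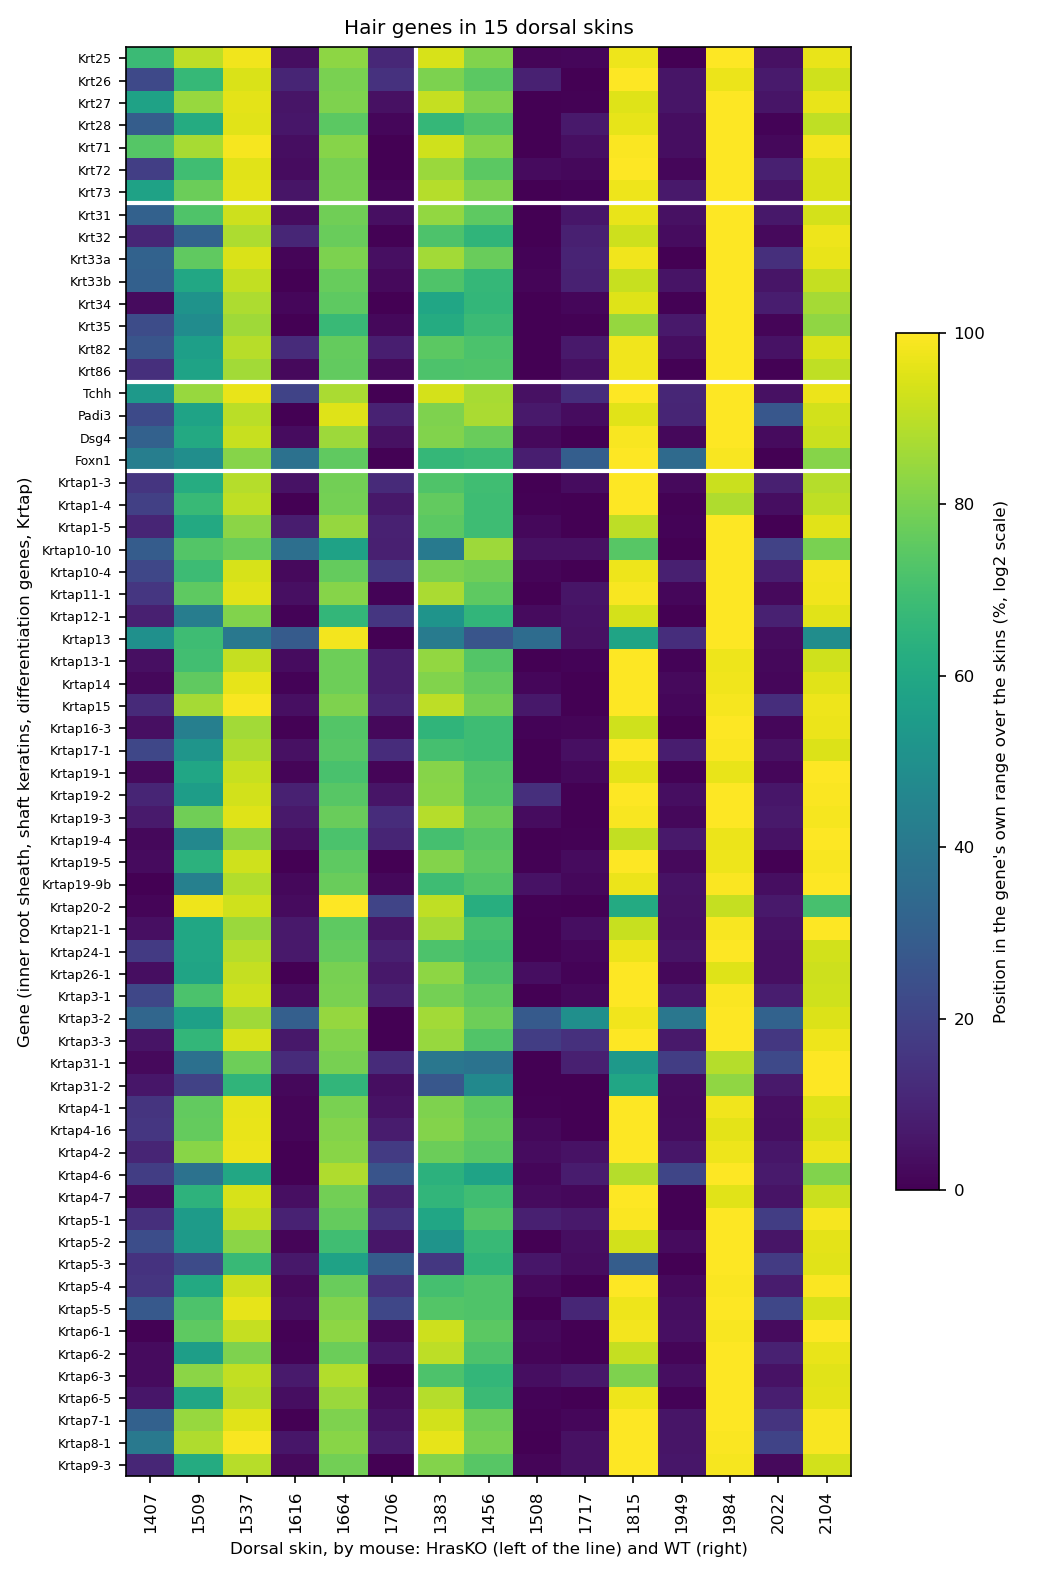
Heat map of 64 hair genes (rows) in 15 dorsal skins (columns, HrasKO left of the white line and WT right of it), coloured by each gene's position between its lowest (0%) and highest (100%) skin on the log2 scale. The same 8 columns are bright in nearly every row, and the row of Krtap13, whose whole range was 0.50 log2, follows another order.

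Krt71, a type II keratin of all inner root sheath layers, had 10.39, 11.56, 12.57, 4.37, 11.12 and 4.06 log2 in the skins of HrasKO mice 1407, 1509, 1537, 1616, 1664 and 1706. In WT mice 1383, 1456, 1508, 1717, 1815, 1949, 1984, 2022 and 2104 it had 12.06, 11.12, 4.07, 4.41, 12.63, 4.37, 12.69, 4.25 and 12.54. The 15 values left a gap between 4.41 and 10.39 with no skin in it, and the genotypes overlapped fully. Krt31, a type I keratin of the shaft cortex, had 6.61, 9.88, 11.44, 4.40, 10.34 and 4.48 in the HrasKO skins in the same order of mice, and 10.79, 10.10, 4.14, 4.62, 11.81, 4.49, 12.06, 4.65 and 11.56 in the WT skins. Its only intermediate skin was that of mouse 1407. Krtap3-2, a high-sulphur protein of the shaft, had 8.50, 9.82, 11.44, 8.33, 11.35 and 6.64 in the HrasKO skins and 11.46, 10.99, 8.22, 9.42, 12.11, 8.85, 12.23, 8.40 and 11.93 in the WT skins. Here the low skins were spread out, and that of mouse 1717 reached 9.42. Foxn1 had 7.40, 7.71, 9.16, 7.16, 8.88 and 5.52 in the HrasKO skins and 8.48, 8.55, 5.87, 6.83, 9.98, 7.04, 9.94, 5.49 and 9.16 in the WT skins. Its spread was 4.50 log2, with the widest break between 5.87 and 6.83 and none as wide as that of Krt71.

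The other inner root sheath keratins spanned 7.47 log2 (Krt72) to 8.06 log2 (Krt25) between the lowest and the highest skin, with Krt26 at 7.81, Krt27 at 7.94, Krt28 at 8.05 and Krt73 at 7.51. Among shaft keratins the span was 8.50 for Krt33a, 8.25 for Krt86, 7.35 for Krt33b, 6.37 for Krt82, 6.32 for Krt35 and 5.87 for Krt34. Krt32, a cuticle keratin, had the smallest span of the keratins at 4.35. Trichohyalin spanned 7.57, Dsg4 7.42 and Padi3 6.23. Of the Krtap genes with the highest means in skin, Krtap8-1 spanned 9.25 between skins 1815 and 1508, and Krtap9-3, Krtap3-1, Krtap5-5, Krtap4-2, Krtap17-1 and Krtap5-3 spanned 6.63, 6.43, 5.92, 5.54, 5.46 and 4.26.

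The skin of HrasKO mouse 1407 held the inner root sheath programme in part and little of the shaft programme. On a scale from each gene's lowest skin (0%) to its highest (100%), the median position in this skin was 57.5% over the 7 inner root sheath keratins, with 4 of them above 50%. Its median was 24.9% over the 8 shaft keratins, none of which passed 50%, and 36.9% over the 4 differentiation genes. It was 10.4% over the 45 Krtap genes, of which 35 lay below 20%. Within the inner root sheath group Krt71 (10.39 log2), Krt25 (9.38), Krt27 (9.29) and Krt73 (8.25) were the 4 above 50%. Krt26 (5.41), Krt28 (5.69) and Krt72 (5.89) were lower, at 22.2%, 29.7% and 18.4%, but above every other low skin. Tchh reached 9.08. In skin 1509, the lowest of the 8 high skins, the medians were 77.7% for inner root sheath keratins, 57.2% for shaft keratins, 59.4% for differentiation genes and 62.0% for Krtap genes. The order of inner root sheath above shaft keratins was thus seen in both, but it was not particular to them. The medians were 89.0% and 72.2% in skin 1383, 80.7% and 69.8% in 1456, and 95.8% and 88.6% in 1537. They were 80.0% and 76.5% in skin 1664, 97.6% and 95.9% in 1815, and 94.8% and 92.4% in 2104. In skin 1984 both were 100%. This describes single libraries and was not tested.

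**Figure D2:**
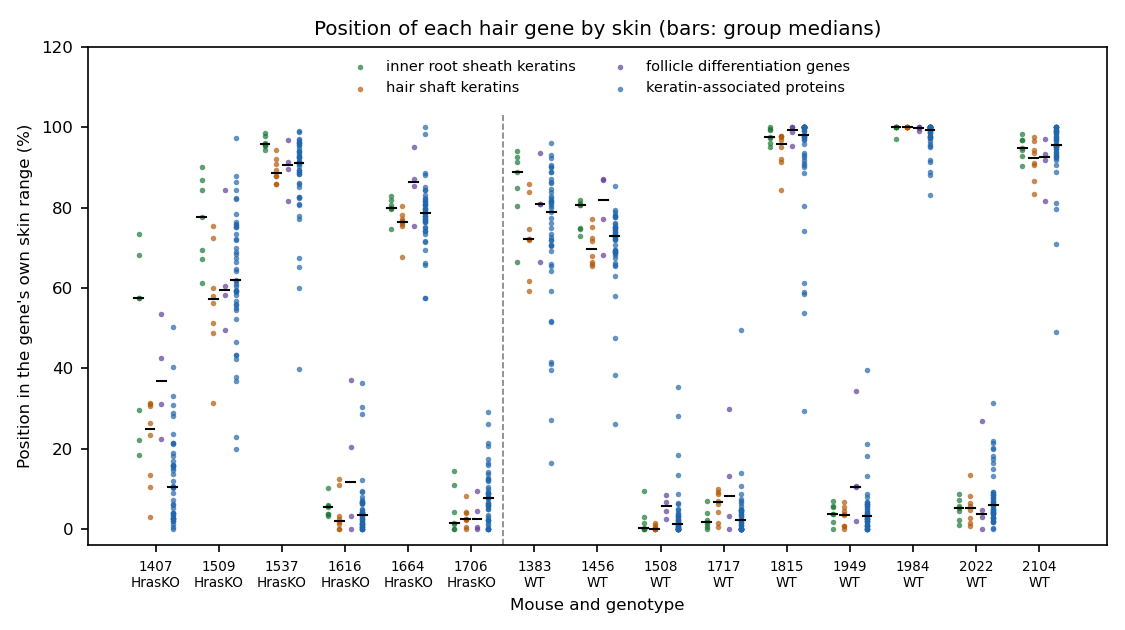
Position of each of the 64 genes within its own skin range (y axis, %) in each of the 15 skins (x axis, HrasKO left of the dashed line), coloured by gene group with black bars for group medians. Skin 1407 is the one in which the inner root sheath median (57.5%) stands farthest above the Krtap median (10.4%).

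Genes that regulate the follicle followed the same division of the skins to different degrees. Hoxc13, a homeobox factor that activates hair keratin genes, had its 8 highest values in the same 8 skins, between 6.87 and 8.65 log2, against 4.21 to 5.82 in the others. Msx2 had 6.90 to 9.40 in these 8 skins and 4.51 to 6.06 in the others, and Lef1 had 6.79 to 9.40 and 4.83 to 6.41. Dlx3 had 8.76 to 11.02 and 6.15 to 8.31. Of the 16 regulators listed, only these had their 8 highest values in the same 8 skins. Hoxc13, Msx2, Lef1 and Dlx3 were named after their values were seen, and the rest of the list overlapped between the sets of skins. Gprc5d, an orphan receptor of the shaft cortex that is no member, had 10.14 to 12.03 and 3.82 to 6.01. By contrast Gata3, an inner root sheath regulator also made in epidermis, stayed between 9.78 and 11.53 across all 15 skins and Bmp4 between 8.85 and 10.04. The melanin synthesis genes Tyrp1 and Dct were at 7.02 to 9.72 and 6.66 to 9.18 in 7 of the 8 skins with high hair genes, while in skin 1383 they were at 4.36 and 4.32. In the 7 other skins they were at 4.47 to 7.08 and 4.49 to 7.03, so skin 1407 lay above skin 1509 for both. Mlana, of the same list, was at 8.95 in skin 1383 and at 6.90 in skin 1509, and did not divide the skins. Marker lists of other skin compartments did not divide the skins in this way, though some skins with low hair genes were lowest for them. The mean over 9 interfollicular epidermis genes was 11.42 to 12.36 in the 8 skins with high hair genes and 10.81 to 12.05 in the 7 others. Skins 1706 (10.81), 2022 (11.14) and 1508 (11.29) had its lowest values. The mean over 10 stem cell and outer root sheath genes was 8.68 to 9.14 in the former set and 7.77 to 9.07 in the latter, lowest in the same skins. For 9 sebocyte genes it was 9.475 to 10.74 and 8.45 to 11.12, lowest in skins 1706 and 2022. The part of these compartments in the hair gene levels was not tested. The mean over 10 skeletal muscle genes lay between 5.24 (skin 1984) and 11.83 (skin 1706). The muscle mean was 5.24 to 11.36 in the 8 skins with high hair genes and 6.16 to 11.83 in the 7 others, and the part of tissue depth in the hair gene levels was not tested.

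The genotypes did not differ in skin at the threshold used throughout, a Benjamini-Hochberg adjusted p under 0.05 over all 18772 genes in limma. None of the 64 members passed it between 6 HrasKO and 9 WT skins, where 0.00533% of all genes did, and none had an unadjusted p under 0.05. The median difference of the members was -0.58 log2 (HrasKO minus WT), against 0.00 for all genes. For Krt71 the difference was 0.19 with a 95% interval from -4.08 to 4.45, and for Krt31 -0.53 with an interval from -4.12 to 3.06. These intervals are wide because both genotypes held high and low skins, 3 of 6 and 5 of 9 being high. In papillomas (4 HrasKO and 9 WT mice) again none of the 64 passed, with 0.00533% of all genes called, and 1 member had an unadjusted p under 0.05. The change from skin to papilloma did not differ between genotypes at the threshold for any member, nor for any gene (0% called), and no member had an unadjusted p under 0.05.

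Papillomas had lower hair gene levels than the skins of the same 13 mice. Of the 64 members 59 fell and 1 rose, where 18.1% of all genes fell, 24.5% rose and 42.6% changed in either direction. The median change of the members was -2.82 log2 and that of all genes 0.05. All 7 inner root sheath keratins and all 8 shaft keratins fell, as did Dsg4 and 43 of 45 Krtap genes. Tchh, Padi3, Foxn1 and Krtap10-10 did not pass the threshold. In bulk tissue, fewer hair-forming cells and less RNA per cell cannot be told apart.

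Krt71 had 4.18, 4.64 and 8.72 log2 (lowest, median and highest mouse) in papillomas of 13 mice, against 4.05, 11.12 and 12.69 in the skins of all 15 mice, a set also used for the next genes. It fell by 3.24 (SE 1.02, adjusted p = 0.0191) and was lower in 9 of 13 mice. The ranges overlap because the low skins were as low as the papillomas. Krt31 had 3.87, 4.46 and 6.48 in papillomas and 4.14, 9.88 and 12.06 in skin, and fell by 3.36 (SE 0.86, adjusted p = 0.00589), being lower in 10 of 13 mice. Krtap3-2 had 5.51, 6.62 and 7.68 in papillomas and 6.64, 9.82 and 12.23 in skin, and fell by 3.45 (SE 0.53, adjusted p = 0.000138), being lower in 12 of 13 mice. Its papillomas all lay below every low skin except that of mouse 1706. Foxn1 had 4.51, 7.81 and 8.86 in papillomas and 5.49, 7.71 and 9.98 in skin, a change of -0.18 (SE 0.57, adjusted p = 0.823) with 6 mice lower and 7 higher. Because the skins fall into 2 sets, the paired differences were also tested by an exact permutation of signs over the 13 mice, two-sided and unadjusted over the 4 genes. It gave exact p = 0.0149 for Krt71, exact p = 0.00635 for Krt31, exact p = 0.000488 for Krtap3-2 and exact p = 0.786 for Foxn1.

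**Figure D3:**
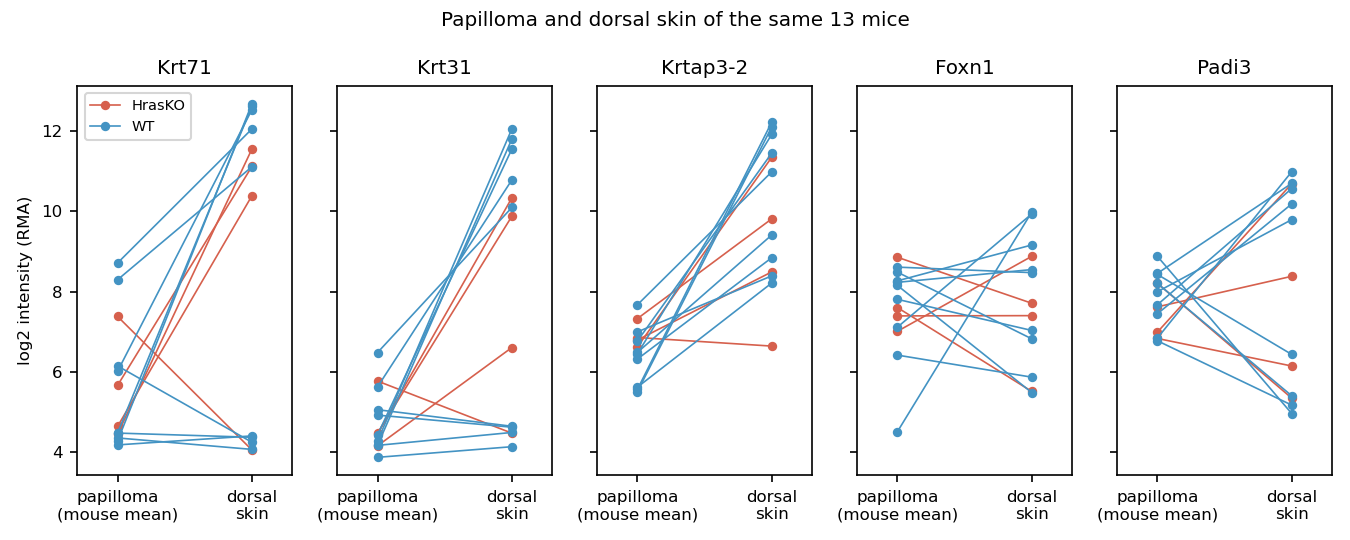
Log2 intensity (y axis) of 5 hair genes in papillomas (left in each panel, mean per mouse) and dorsal skin (right) of the same 13 mice, 1 line a mouse, red for HrasKO and blue for WT. Krt31 and Krtap3-2 in papillomas reach at most 6.48 and 7.68 and Krt71 8.72, while Padi3 in papillomas lies inside the spread of the skins. Foxn1 in papillomas overlaps the skins, but its lowest mouse (4.51) lies below the lowest skin (5.49).

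The direction differed between mice. Over the 64 members the papilloma mean was below the skin mean by 6.48 log2 in mouse 1984, where 63 members were lower, and papilloma minus skin was -6.39 in mouse 1815 and -6.01 in mouse 2104. In HrasKO mouse 1706 papilloma minus skin was 0.84, with 53 members higher, and it was 0.52 in WT mice 1717 and 2022 with 56 and 54 members higher. In mice 1508 and 1949 it was 0.09 and 0.04. These 5 mice were those of the 13 whose skins had the lowest hair gene means, from 4.55 to 4.87. The papilloma means of all 13 mice lay between 4.516 and 6.497, against 4.55 to 11.16 for the skins of the 15 mice.

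The remaining keratins fell by similar amounts. Among inner root sheath keratins the change was between -3.24 (Krt71) and -2.80 (Krt72), with Krt25 at -3.11, Krt26 at -2.91, Krt27 at -3.13, Krt28 at -3.03 and Krt73 at -3.02. Among shaft keratins the change was -3.31 for Krt33a, -2.96 for Krt86, -2.59 for Krt33b, -2.39 for Krt82, -2.32 for Krt35, -2.20 for Krt34 and -1.78 for Krt32. Dsg4 fell by 2.64 (SE 0.81, adjusted p = 0.0174). Trichohyalin had 4.44, 7.13 and 9.31 in papillomas and 5.03, 11.43 and 12.60 in skin (change -2.27, SE 1.02, adjusted p = 0.089). Padi3, also made in epidermis, had 6.78, 7.67 and 8.88 in papillomas and 4.76, 8.38 and 10.99 in skin (change -0.34, adjusted p = 0.732), so that the papilloma values lay within the skin range. Of Krtap genes the largest fall was that of Krtap15 by 3.64 (SE 1.02, adjusted p = 0.0104). Krtap8-1 fell by 3.57, Krtap5-5 by 2.56, Krtap3-1 by 2.46, Krtap9-3 by 2.43, Krtap4-2 by 2.31, Krtap17-1 by 2.24 and Krtap5-3 by 1.15. Krtap13 rose by 0.60 (SE 0.20, adjusted p = 0.0239), being higher in 11 of 13 mice, and was the one member called against the rest. Its array median was 3.90 in papillomas and 3.75 in skin, both low, and a few papilloma arrays, up to 7.89, were far higher.

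Other genes of the follicle are set here beside the 18.1% of all genes that fell and the 24.5% that rose. Of 16 follicle regulators 7 fell and 1 rose, with a median change of -0.61. Gata3 fell by 2.36 (SE 0.31, adjusted p = 4.14e-05) and Bmp4, a growth factor of the follicle mesenchyme, by 2.05 (SE 0.20, adjusted p = 4.88e-06), each in 13 of 13 mice. The regulator that rose was Runx1 by 0.73 (adjusted p = 0.000643), named after its value was seen. Of 12 further hair keratins and shaft genes 5 fell and 1 rose, with Gprc5d at -3.13 (SE 0.91) and the shaft keratin Krt39 at -2.96 (SE 0.76). The one that rose was Tgm3, a transglutaminase of both hair and epidermis, by 2.03 (adjusted p = 0.0358), also named after its value was seen. Of 10 stem cell and outer root sheath genes 6 fell and 1 rose. Among them were Lhx2 at -2.62 (SE 0.30) and Krt15 at -2.25 (SE 0.38), while Barx2, the one that rose, was at 0.73. Of 7 pigment cell genes Mlana alone passed, with a fall of 1.06 (adjusted p = 0.0482), no larger a share than among all genes.

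Markers of other tissue layers moved in the same comparison. All 10 skeletal muscle genes fell (median -3.14, with Atp2a1 at -4.05 and Myl1 at -3.84), and their mean per mouse ranged from 4.91 to 8.26 in papillomas and from 5.24 to 11.83 in skin. Of the 9 sebocyte genes 7 fell (median -3.10, with Awat1 at -4.09 and Mc5r at -3.86), with means of 6.28 to 9.53 in papillomas and 8.45 to 11.12 in skin. Of the 9 adipocyte genes 7 fell (median -2.96, with Car3 at -5.21 and Cidec at -3.75), with means of 5.86 to 7.65 in papillomas and 7.03 to 11.37 in skin. All 9 cell cycle genes rose (median 1.71, with Cdc20 at 1.99 and Aurka at 1.89). Of 9 interfollicular genes 2 fell, Krt77 by 5.09 and Flg2 by 3.30, a share near the 18.1% of all genes. Fibroblast genes fell in 3 of 8 cases, with Pi16 at -1.75 and Dpt at -1.49, T cell genes in 2 of 5, with Cd3g at -2.003 and Cd3e at -1.04, and macrophage genes in 0 of 7. The part of these layers in the change of the hair genes was not tested.

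Hair gene levels were high in single tumours. Papilloma PAP2 of WT mouse 1456 had a mean over the 64 members of 8.05 log2, against a median of 4.84 over the 27 papillomas. It was the highest papilloma for 58 members, and 41 of its members lay above the middle of their skin range. Papilloma PAP1 of HrasKO mouse 1706 (6.54), PAP2 of WT mouse 2022 (6.45) and PAP2 of WT mouse 1383 (5.82) followed. These arrays were picked for their values, so no test is given. Among SCC carcinomas those of mice 1383 (6.98) and 1456 (6.59) were the highest, and among spindle carcinomas that of HrasKO mouse 1537 (6.34), which led for 55 members. The highest spindle metastasis had 4.72, the highest SCC metastasis, a lung metastasis of mouse 1717, had 5.40, and no metastasis of either histology had more than 3 members above the middle of their skin range.

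**Figure D4:**
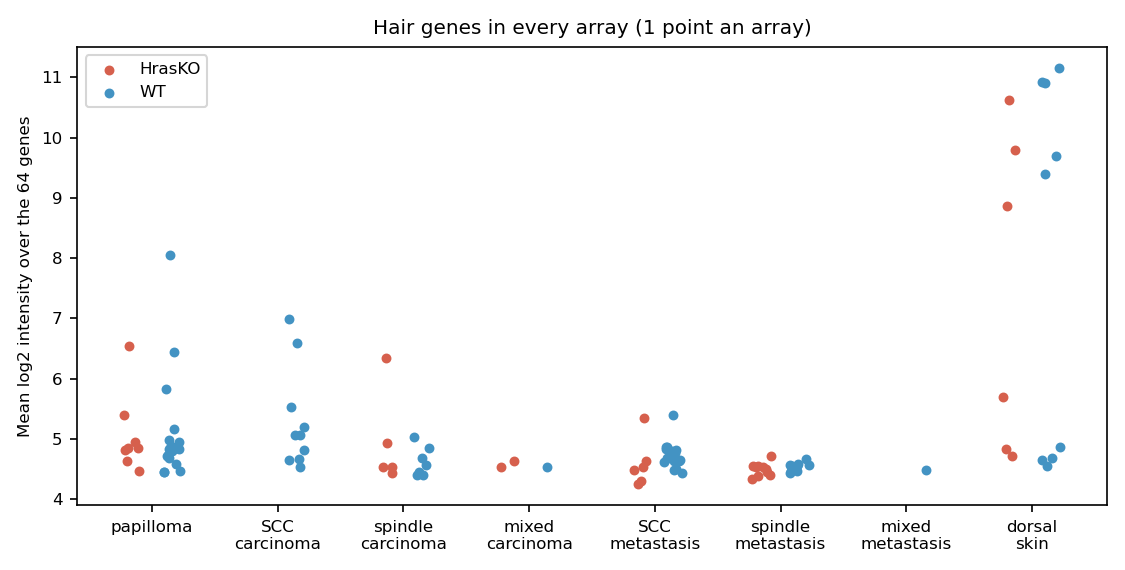
Mean log2 intensity over the 64 hair genes (y axis) in each of the 112 arrays, by group (x axis), with HrasKO in red left of WT in blue. Skins form a high and a low cloud, single papillomas and carcinomas reach 8.05 and 6.98, and metastases stay at or below 5.40.

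Carcinomas of each histology were set against the skins of the same mice. The SCC and spindle comparisons rest on different sets of mice with 5 skins in common, and both share skins with that of papillomas, so their values are given side by side only. In SCC carcinomas (8 mice) 4 members fell, where 15% of all genes fell, 15.6% rose and 30.6% changed in either direction, and the median change was -2.27 against 0.06 for all genes. The 4 were Krtap3-2 at -3.15 (SE 0.64, adjusted p = 0.0057), Krtap19-2 at -2.90, Krtap3-3 at -2.78 and Krt32 at -1.67. Of the 64 members, 44 had an unadjusted p under 0.05, these 4 included. The count hung on single mice: it was 16 without mouse 1508, whose skin was low, 2 without mouse 1717 and 1 without any one of mice 1383, 1456, 1984 or 2104. With each mouse left out in turn, 4561 to 5408 of all 18772 genes passed. In spindle carcinomas (10 mice) 61 members fell, where 19.2% of all genes fell, 27.5% rose and 46.7% changed in either direction, with a median of -3.52 against 0.08 for all genes. In WT mice alone (6 mice) 2 members were called, with a median of -3.18, and the share of all genes in that fit is not given here. Markers of other cell types moved in both comparisons. In SCC carcinomas 7 of 10 muscle genes fell (median -2.54), as did 7 of 9 sebocyte genes (median -4.07), 7 of 9 adipocyte genes (median -2.39) and 4 of 9 interfollicular genes (median -1.74). In spindle carcinomas all 10 muscle genes (median -2.82), 8 of 9 sebocyte genes (median -4.07), all 9 adipocyte genes (median -3.38) and all 9 interfollicular genes (median -4.50) fell, and all 7 macrophage genes rose (median 1.18). The muscle mean was 5.05 to 7.14 in SCC carcinomas, 4.97 to 7.68 in spindle carcinomas and 5.24 to 11.83 in skin. The part of these cell types in the change of the members was not tested.

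Krt71 had 4.36, 4.90 and 10.22 in SCC carcinomas (lowest, median and highest mouse), 4.25, 4.43 and 9.72 in spindle carcinomas and 4.05, 11.12 and 12.69 in the skins of all 15 mice. The 8 mice with an SCC carcinoma had 12.06, 11.12, 4.07, 4.41, 4.37, 12.69, 4.25 and 12.54 in skin, of which 4 were low. Its change from skin was -2.28 (SE 1.11, adjusted p = 0.15) in SCC carcinomas and -4.53 (SE 1.01, adjusted p = 0.00347) in spindle carcinomas. Krt31 was at -2.68 (adjusted p = 0.0761) and -4.19 (adjusted p = 0.00258). The 2 members with the largest falls in spindle carcinomas were Krtap8-1 at -4.83 (SE 1.01) and Krtap15 at -4.61 (SE 1.04). Foxn1 changed by -0.59 (SE 0.40, adjusted p = 0.286) in SCC carcinomas and fell by 3.04 (SE 0.56, adjusted p = 0.00108) in spindle carcinomas, and Tchh was at -1.003 (adjusted p = 0.48) and -4.17 (adjusted p = 0.00533). Dsg4 was at -1.44 (adjusted p = 0.202) and -3.39 (adjusted p = 0.022). Padi3 had a change of 1.02 (SE 0.86, adjusted p = 0.394) in SCC carcinomas and -0.91 (SE 0.90, adjusted p = 0.434) in spindle carcinomas.

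Between tumour classes few members passed, and Foxn1 was among them in every comparison with a call. Between SCC carcinomas and papillomas of 8 mice no member passed, with 0.202% of all genes called (0.192% lower and 0.0107% higher), and 2 members had an unadjusted p under 0.05. These were Padi3, 1.18 higher (SE 0.26, adjusted p = 0.129) in 7 of 8 mice, and Foxn1 at -0.81 (SE 0.35, adjusted p = 0.514). Between spindle carcinomas and papillomas of 9 mice 4 members fell, where 11.2% of all genes fell, 12.6% rose and 23.8% changed in either direction. Foxn1 had 4.44, 4.56 and 7.70 in spindle carcinomas and 4.51, 7.81 and 8.86 in papillomas and fell by 2.40 (SE 0.46, adjusted p = 0.0094), in 8 of 9 mice. Krtap17-1 and Krtap9-3 each fell by 0.69 (adjusted p = 0.01 and 0.0297) and Krtap6-3 by 0.27 (adjusted p = 0.0449). In the same comparison all 9 interfollicular genes (median -3.26) and 6 of 7 pigment cell genes (median -1.12) fell and 4 of 7 macrophage genes rose (median 1.20). The mean of the interfollicular genes was 5.46 to 8.56 in spindle carcinomas and 5.25 to 11.50 in papillomas, and the part of these cell types was not tested. With carcinomas titled RegCA left out, or in WT mice alone, no gene of the 18772 passed in this comparison. Without the arrays closest to another class 20 members passed, and the share of all genes in that fit is not given here. The count was 7 without mouse 1949 and 2 without any one of mice 1383, 1407, 1508, 1509, 1664 or 2022. With each mouse left out in turn, 2105 to 5785 of all 18772 genes passed.

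Spindle and SCC carcinomas of WT mice (6 and 8 mice) differed in 2 of the 64 members, both lower in spindle carcinomas, where 4.09% of all genes were lower, 3.47% were higher and 7.56% differed in either direction. The share of members called lower was no larger than that of all genes. In the 6 WT mice with spindle carcinomas Foxn1 had 4.47 to 4.88 apart from mouse 1949 at 7.70, against 6.27, 6.96 and 8.03 (lowest, median and highest mouse) in SCC carcinomas. The difference, spindle minus SCC, was -1.95 (SE 0.49, adjusted p = 0.029). Tchh differed by -2.42 (SE 0.64, adjusted p = 0.0359). The spindle carcinoma array of mouse 1949 is the one that lay closest to SCC carcinomas, and 7 members passed without that mouse. Without any one of mice 1383, 1456, 1508, 1815, 1984, 2022 or 2104 the count was 0. With each mouse left out in turn, 1 to 4056 of all 18772 genes passed. Epidermal markers moved with these genes, the mean over 9 interfollicular genes being 5.46 to 8.56 in all spindle carcinomas and 8.66 to 10.59 in SCC carcinomas. The part of epidermal differentiation in the difference was not tested.

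Between SCC metastases and SCC carcinomas of the same 8 mice 2 of the 64 members were called, Foxn1 and Tchh, both lower in metastases. Of all genes 2.74% were lower, 1.81% higher and 4.55% different in either direction. The share of members called lower was thus near that of all genes. Foxn1 fell by 1.68 (SE 0.25, adjusted p = 0.0111) and Tchh by 2.29 (SE 0.39, adjusted p = 0.0157), each in 8 of 8 mice. These are mouse means, and the lung metastasis of mouse 1456 had a Foxn1 value of 10.40, the highest of all 112 arrays, against 7.35 in the carcinoma of that mouse. Foxn1 had 4.29, 5.06 and 6.91 in SCC metastases of 11 mice against 6.27, 6.96 and 8.03 in SCC carcinomas. Tchh had 4.73, 5.57 and 6.51 against 5.97, 7.80 and 9.68, so that the ranges of both genes overlap only slightly. Without mouse 1456 the count was 1. With each mouse left out in turn, 202 to 892 of all 18772 genes passed. The mean of the 9 interfollicular genes was 5.0 to 8.76 in SCC metastases and 8.66 to 10.59 in SCC carcinomas. In the paired comparison 2 of 7 macrophage genes (median 1.16) and 1 of 5 T cell genes (median 1.11) rose. The part of epidermal differentiation, of immune cells and of host tissue at the metastatic sites was not tested. Padi3 did not follow, with 4.96, 9.25 and 10.09 in SCC metastases and 7.73, 8.68 and 10.70 in SCC carcinomas (change -0.04, SE 0.54, adjusted p = 0.987). Between spindle metastases and spindle carcinomas of 7 mice no member and no gene passed (0% called), with 11 members at an unadjusted p under 0.05 and a median change of -0.36.

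**Figure D5:**
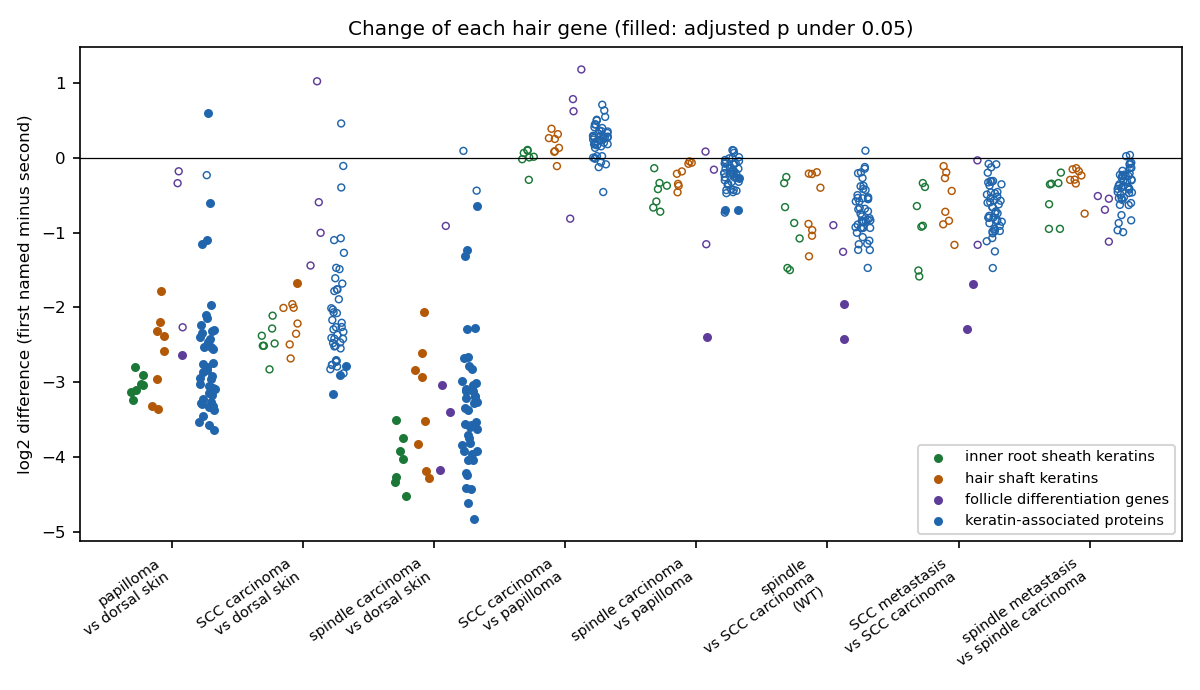
Log2 difference of each of the 64 genes (y axis, first named group minus second) in 8 comparisons (x axis), coloured by gene group, filled where the adjusted p was under 0.05. The changes against skin reach -4.83, and between tumour classes the differences lie between -2.42 (Tchh, spindle against SCC carcinomas) and 1.18 (Padi3, SCC carcinomas against papillomas).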

How the data were processed

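The deposited values are log2 intensities of 28204 Affymetrix probe sets, made with RMA per the submitters' processing notes. Neither the RMA version nor any batch correction is named there. Symbols came from the platform annotation: 21141 probe sets had 1 symbol, 1881 had several and 5182 had none, and the last 2 kinds were left out. For a gene with several probe sets the one with the highest mean was used. Models were fitted on mouse means over all 18772 genes with lmFit and eBayes (limma 3.58.1, R 4.3.3), with mouse as a fixed block for tissues of the same mice, mouse as a random block for spindle against SCC carcinomas, and batch as a covariate between genotypes. The labels name 2 batches, the first with 95 arrays (13 mice) and the second with 17 (mice 1456 and 1664). P-values are two-sided and adjusted by Benjamini-Hochberg. The pairing comes from tissues of 1 animal. The fits were tested on simulated data. The number of arrays limits the precision.

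The members and gene lists were chosen with earlier results of these data known. Named are every member that is no Krtap, the 8 Krtap genes with the highest mean in skin, in each comparison the largest called fall and rise and any member called against its group, and the 2 largest called changes of each other list. The alternatives tried were the mean over probe sets, a filter that kept genes exceeding the overall median on 8 or more arrays, trended robust moderation, repeated quantile normalization, batch 1 alone, no mouse block, individual arrays, WT mice alone, carcinomas titled RegCA left out, lymph node metastases alone, the arrays closest to another class left out, no batch covariate, and each mouse left out in turn.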

Additional observations from a re-analysis of the deposited data

Results flagged for a closer look

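Of 63 sets of 4 to 10 mice examined for 1 mouse far from the others, 10 were marked, and chance marks about 1 in 20. The sets overlap, since group means hold the single genes. Mouse 1537 stood apart in 6 of them, all in spindle carcinomas of 10 mice. It was the highest for Krt71 (9.72, the next mouse at 5.41), Krt31 (5.98, next 4.69), the mean of all members (6.34, next 5.02), the mean of inner root sheath keratins (7.23, next 4.69), of shaft keratins (5.89, next 4.87) and of Krtap genes (6.31, next 4.88). Its skin was also among those with high hair genes. Mouse 1949 was the highest spindle carcinoma for Foxn1 (7.70, next 5.22), Krtap3-2 (9.55, next 6.68) and the mean of the differentiation genes (8.12, next 6.07). In spindle metastases of 7 mice, mouse 1664 had the lowest member mean at 4.39, with the next at 4.53.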

How the results depend on the processing

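Of 669 recomputed results for named genes, 607 kept direction and call, 62 kept the direction but missed the threshold, and 0 reversed. Papillomas against skin gave 60 calls, 40 in batch 1 alone and 42 in WT mice alone, and 57 to 61 with 1 mouse left out. SCC carcinomas against skin gave 4 calls, 1 in batch 1 alone, 2 with no replicate block, 17 over individual arrays and 1 to 16 with 1 mouse left out. Spindle carcinomas against skin gave 61 calls, and 2 in WT mice alone. SCC carcinomas against papillomas gave 0 calls, and 1 without the arrays closest to another class. Spindle carcinomas against papillomas gave 4 calls, 2 in batch 1 alone, 20 without the arrays closest to another class, 0 in WT mice alone, 0 without RegCA carcinomas and 2 to 7 with 1 mouse left out. Spindle against SCC carcinomas gave 2 calls, 0 in batch 1 alone and 0 to 7 with 1 mouse left out. SCC metastases against SCC carcinomas gave 2 calls, 1 in batch 1 alone, 9 over individual arrays, 1 in lymph node metastases alone and 1 to 2 with 1 mouse left out. Fewer mice enter several of these fits, and beyond that the cause was not tested. The mouse block moved no other count by over 1.5 times. The alternative of WT mice alone was not run for SCC carcinomas, which are all WT. Of the 64 members, 59 passed the filter on low values. Counts over all 18772 genes moved as well. With 1 mouse left out they were 7278 to 8589 for papillomas and 7892 to 8885 for spindle carcinomas against skin. They were 2105 to 5785 for spindle carcinomas against papillomas and 1 to 4056 for spindle against SCC carcinomas. For the other alternatives the counts over all genes are not listed here.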

Other observations

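Single arrays held high levels of particular members, and these arrays were chosen after their values were seen. The highest Foxn1 of all 112 arrays was 10.40, in a lung metastasis of WT mouse 1456. In that array Padi3 was at 10.69, while Krt31 was at 3.93, Krt71 at 4.01 and the mean of all members at 4.65. The thymic epithelial genes Psmb11, Prss16 and Ccl25 were at 4.24, 6.79 and 6.13 there, against 4.32 to 4.67, 6.82 to 7.15 and 6.23 to 6.75 in the other 2 metastases of the mouse. The lung gene Sftpc was at 11.11 there, against 3.81 and 3.85. Krtap13, which lay between 3.56 and 4.05 in all 15 skins, reached 7.89 in papilloma PAP2 of mouse 1508, 6.70 and 6.29 in papillomas PAP1 and PAP3 of mouse 1984, 6.31 in PAP2 of mouse 1456, whose members were high as a whole, and 5.90 in a carcinoma of mouse 2104, with a median of 3.90 over the 27 papillomas. Dsg4 reached 9.10 in the SCC carcinoma of mouse 1984, against a median of 4.91 over the 10 SCC carcinoma arrays. The 3 carcinomas and 1 metastasis of mixed histology entered no comparison, and their member means were 4.63, 4.54, 4.53 and 4.48.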
